A study of Sus scrofa with 28 samples.

Results

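Closely spaced gene pairs are neighbouring protein-coding genes that do not overlap and whose facing ends lie at most 1000 bp apart. The RefSeq gene table of the pig build Sscrofa11.1 held 2061 such pairs among 19484 protein-coding genes, counted over the 19 chromosomes with peaks. A peak belonged to a pair when its centre lay in the gap or within 1000 bp of either facing end. Of 84192 listed peaks in 28 libraries, 5123 (6.08%) met this rule. They made up 12.5% of the 40835 peaks at ends of protein-coding genes, while facing ends were 10.6% of all such ends. These shares count peaks and ends, and a single peak often lay at both facing ends of a pair. They therefore do not measure an excess. Only positions chose the peaks, and no measured strength or group difference was used.

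The peaks come from ATAC-seq, in which a transposase inserts sequencing adapters into open chromatin, of liver of female Zlotnicka White pigs aged 180 days and slaughtered at about 100 kg. The groups were 7 libraries of high fat and 7 of low fat pigs with the label number 600, and 7 of high fat and 7 of low fat pigs with the label number 200. The labels explain neither the 2 numbers nor whether libraries of the same replicate number share an animal, and they name no tissue whose fat was measured. The 600 and the 200 libraries also differ in their lane tag, so number and lane cannot be told apart. The liver label was checked on marker genes: 8 of 11 hepatocyte markers had a peak within 1000 bp of a gene end in some library, albumin (ALB), transthyretin (TTR) and hemopexin (HPX) among them, against 0 of 8 endothelial and stellate, 1 of 6 macrophage, 0 of 4 annotated cholangiocyte and 2 of 6 lymphocyte markers. No hepatocyte marker was listed in more than 11 of 28 libraries. Of protein-coding gene ends other than facing ends, 22.7% had a peak in some library, a share per end and not per gene.

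In mammals many close neighbours are divergent genes whose starts face each other across a short shared promoter, often a CpG island from which polymerases leave in both directions. Such pairs are known for housekeeping functions such as chaperones, DNA repair, mitochondrial proteins and translation, and a shared promoter can keep partner proteins in step. Other close neighbours run in the same direction or end toward each other. The gene table used here gives no strand, so these arrangements were not separated, and a facing end can be the start or the end of a gene.

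Libraries differed widely in yield, which bears on every count below. Listed peaks ranged over 39 to 6453 in high fat 600 libraries (median 190), 101 to 3775 in low fat 600 libraries (median 526), 205 to 17652 in high fat 200 libraries (median 1610) and 196 to 8221 in low fat 200 libraries (median 2467). Pairs with a peak numbered 0 to 458 (median 15), 0 to 320 (median 59), 0 to 710 (median 100) and 1 to 534 (median 248) in the same order of groups. The number of reads behind a library is unknown, so an unlisted pair may be closed or only thinly sequenced. High fat 600 replicates 2 and 6, low fat 600 replicate 2 and high fat 200 replicate 6 had no peak at any pair.

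A minority of the pairs had a peak in any library, and a small set recurred. A peak was listed at 944 of 2061 pairs (45.8%), at 554 in some 600 library and at 919 in some 200 library. Of the listed pairs, 229 were found in a single library, 400 in 2 to 6, 264 in 7 to 13 and 51 in 14 or more, with 21 as the highest number. Pairs in which both genes have a symbol were listed in 46.9% of cases (839 of 1788), and those with an unnamed gene model in 38.5% (105 of 273). Chained over libraries by overlap, the peaks of the pairs formed 967 regions. Of these regions 5.38% were listed in 14 or more libraries and 25.7% in 1, against 3.97% and 30.6% of 7514 regions at other protein-coding gene ends. Nearly all listed pairs, 920 of 944, had 1 such region, and 24 had 2.

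Facing ends carried a peak more often than the other ends of protein-coding genes in the same library. The windows had the same width for every end, but a window at a facing end nearly always also held the end of the partner gene. Whether facing ends exceed other ends at equal numbers of gene ends per window was not tested. In the 600 libraries 5.81% ± 7.74 of facing ends and 2.48% ± 3.39 of other ends had a peak centre within 1000 bp (SD, n = 14). The difference was 3.33 points ± 4.36, above 0 in 11 of 14 libraries (exact sign-flip permutation test over libraries, two-sided, p = 0.000977, adjusted p = 0.000977 over 4 tests). In the 200 libraries the shares were 11.3% ± 12.0 for facing ends and 5.21% ± 5.84 for other ends (SD, n = 14). Here the difference was 6.06 points ± 6.21, above 0 in 13 of 14 libraries (same exact test, p = 0.000366, adjusted p = 0.000732). The ratio varied less between libraries than the difference. Among libraries with at least 1000 peaks, facing ends were listed 2.13 to 2.57 times as often as other ends in 6 libraries of the 600 set (median 2.33) and 2.00 to 2.88 times in 9 of the 200 set (median 2.16).

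The far ends offer a second comparison, drawn from the same genes. Without strand, facing and far ends may differ in their mix of gene starts and gene ends. This comparison therefore cannot separate place in the pair from start against end of a gene. Of 3304 far ends that face no other close pair, 1.69% ± 2.41 had a peak in the 600 libraries and 4.18% ± 5.01 in the 200 libraries (SD, n = 14 each). Facing ends exceeded them by 4.12 points ± 5.35 in the 600 libraries (exact sign-flip permutation p = 0.000977, adjusted p = 0.000977, higher in 11 of 14) and by 7.09 points ± 7.11 in the 200 libraries (exact p = 0.000244, adjusted p = 0.000732, higher in 13 of 14). The facing ends of a pair often share a peak and are not independent. With 1 window per pair at the middle of the gap, the difference from other ends kept its direction and passed in both sets. That window also holds both facing ends, so it does not equalise the number of gene ends per window. All 4 differences kept their direction but failed the adjusted threshold when only the top decile of peaks by strength was used (exact permutation, adjusted p = 0.0625 to 0.0938).

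**Figure D1:**
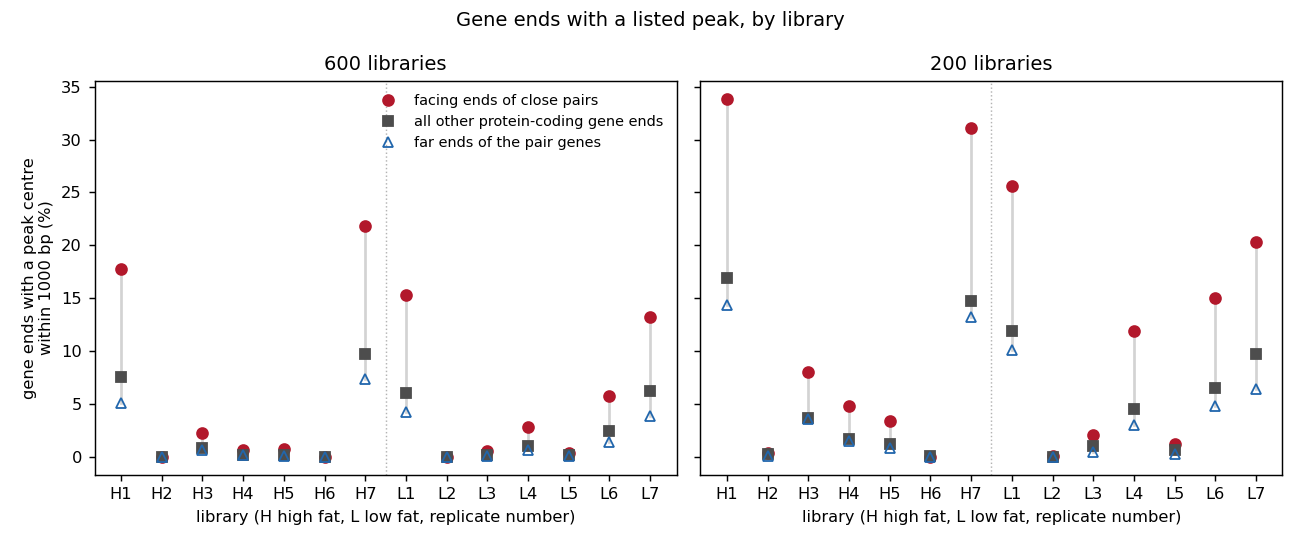
Share of gene ends with a peak centre within 1000 bp (y axis, %), for facing ends of close pairs, all other protein-coding gene ends and the far ends of the pair genes, in each of 14 libraries with the number 600 (left) and 14 with the number 200 (right). Facing ends lie above both other kinds in every library with at least 1000 peaks, up to 33.8% against 16.9% of other ends in high fat 200 replicate 1. A window at a facing end nearly always also holds the end of the partner gene.

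Peak centres lay mostly in the gap or within 250 bp of it rather than evenly over the window. No such profile is given for other gene ends, so the pattern was not compared with theirs. The centre lay in the gap for 1788 of 5123 peaks, or 2.72 peaks per kb of gap sequence over all libraries. Density was 2.44 peaks per kb in the first 250 bp outside the facing ends, 0.475 from 250 to 500 bp, 0.207 from 500 to 750 bp and 0.114 from 750 to 1000 bp. Overall 74.6% of the peaks (3820) spanned both facing ends, 15.9% covered a single facing end and 9.49% covered neither. Peaks of the 600 libraries were wider (median 1103 bp) than those of the 200 libraries (579 bp), and 89.8% and 67% of them spanned both ends.

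The share of peaks that spanned both ends was lower for longer gaps, which a peak of given width can span less often. Gaps had a median of 199 bp (quartiles 95 and 529 bp). Where the gap was 0 to 100 bp, 92.1% of peaks spanned both ends, and where it was 101 to 300 bp, 83.4% did. At 301 to 600 bp the share was 50.3%, and at 601 to 1000 bp it was 12.6%. In this last class centres were densest 300 to 500 bp from the middle of the gap, near the facing ends, and 82 of 132 listed pairs had a peak over only 1 of their facing ends, against 23 with both ends covered.

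**Figure D2:**
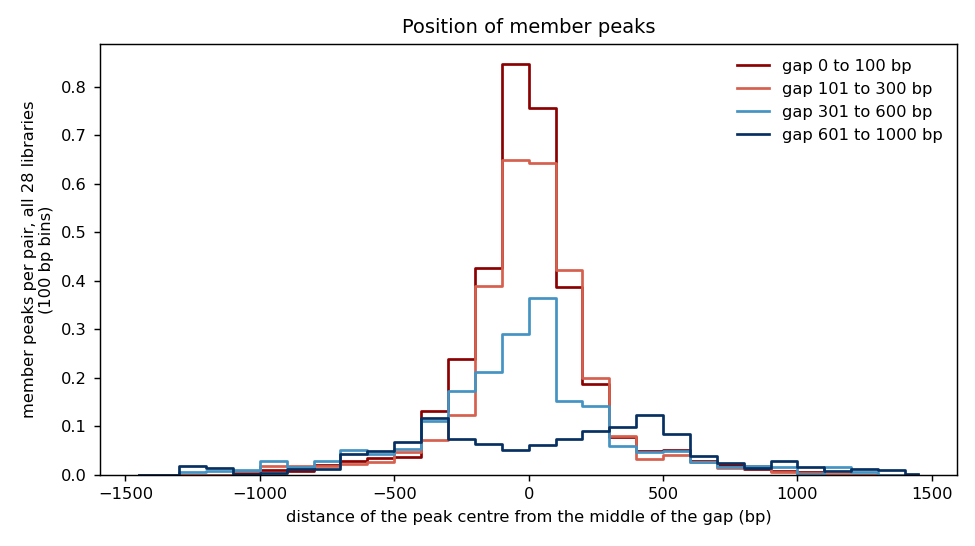
Member peaks of all 28 libraries per pair (y axis, 100 bp bins) by distance of the peak centre from the middle of the gap (x axis, bp), for 4 classes of gap length. Pairs with gaps up to 300 bp have 1 maximum at the middle, up to 0.846 peaks per pair in a bin, and gaps of 601 to 1000 bp have a maximum on each side, of at most 0.123.

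Short gaps were also listed more often, although their windows are the shorter ones. Some library listed 58.1% of 546 pairs with a gap of 0 to 100 bp, 47.9% of 701 at 101 to 300 bp, 40.8% of 390 at 301 to 600 bp and 31.1% of 424 at 601 to 1000 bp. In each of the 15 libraries with at least 1000 peaks the longest class was the lowest, and the shortest class was listed 1.44 to 5.82 times as often (median 3.05). No test is given for these classes, which were not part of the planned tests. At the limit of the rule nothing stepped: 30 of 100 pairs with gaps of 901 to 1000 bp were listed, and 32 of 102 pairs of 1001 to 1100 bp, which are not members. Among pairs with gaps over 600 bp and a symbol for both genes, picked after their values were seen, the most listed were SESN1-CEP57L1 (gap 614 bp, 14 libraries), with the stress-induced regulator of TORC1 signalling sestrin 1, and RRAS-SCAF1 (gap 622 bp, 13 libraries), with a small GTPase of the RAS family.

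**Figure D3:**
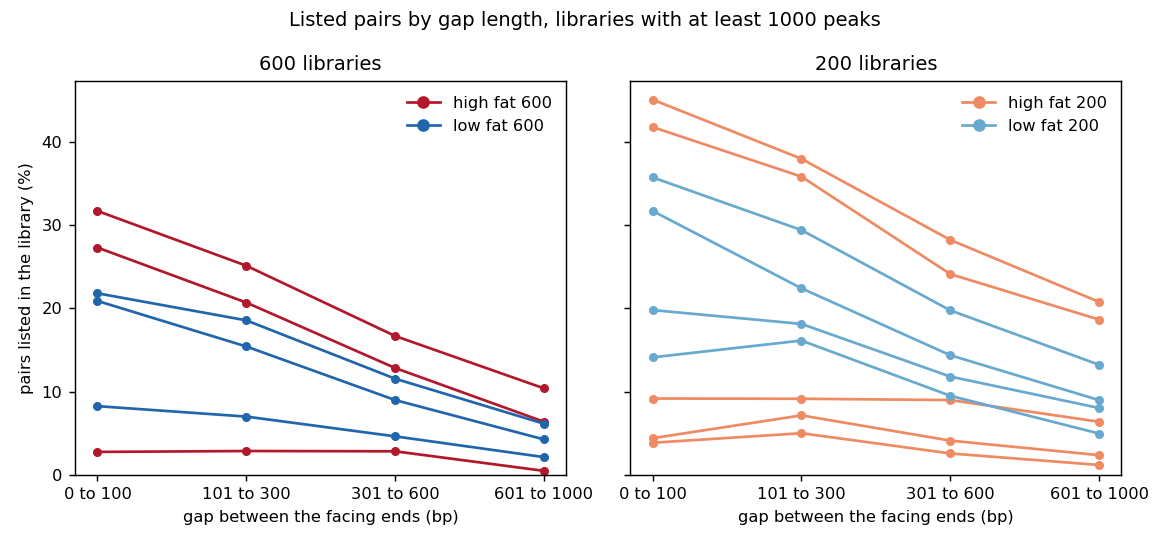
Share of pairs listed in a library (y axis, %) by gap length (x axis, 4 classes in bp), for the 6 libraries of the 600 set (left) and the 9 of the 200 set (right) with at least 1000 peaks, 1 line per library. Every line is lowest at gaps of 601 to 1000 bp.

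No difference in strength or width between these peaks and other peaks at gene ends passed the test. In 10 libraries of the 600 set with at least 10 peaks of each kind, the median deposited −log10 p averaged 3.77 ± 0.31 at pairs and 3.78 ± 0.28 at other ends (SD), a difference of −0.0074 ± 0.131 (exact sign-flip permutation p = 1.00). In 11 libraries of the 200 set it was 4.42 ± 0.50 at pairs and 4.36 ± 0.47 at other ends, a difference of 0.0523 ± 0.124 (exact permutation p = 0.188, adjusted p = 0.375 over 4 tests). Median widths differed by −10.5 bp ± 58.3 in the 600 set (exact permutation p = 0.602, adjusted p = 0.802) and by 5.32 bp ± 12.1 in the 200 set (exact permutation p = 0.176, adjusted p = 0.375). For −log10 p the medians at pairs and at other ends were equal in many libraries, and the difference was above 0 in 2 of 10 and 4 of 11. Equal medians add nothing to a sign-flip test, so the tests of −log10 p had little room to pass and do not show equal strength. The direction of all 4 depended on the setting.

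The 15 most listed named pairs had gaps of 11 to 520 bp and medians of −log10 p between 4.94 and 6.17. They were found in the same libraries: 12 libraries listed all 15 and 5 listed none. The 12 were 2 high fat 600, 4 low fat 600, 2 high fat 200 and 4 low fat 200 libraries. In 10 of the 15 the strongest peak was that of high fat 200 replicate 1, the library with the most peaks. Both far ends were without a peak in every library for 13 of the 15, and for 46 of the 51 pairs listed in 14 or more libraries. Most far ends were unlisted in general: 21.7% of the 3304 that face no other close pair had a peak in some library. The share of all pairs with both far ends unlisted was not computed. The exceptions among the 15 were PHTF2-TMEM60, with a far end listed in 1 library, and TAP1-PSMB9, where the far end of TAP1 was listed in 7.

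The roles of these genes are diverse, and they are described here without a test of any theme. HSPD1 and HSPE1 encode the mitochondrial chaperonin Hsp60 and its lid-like partner Hsp10, which fold imported proteins together. Their gap on chromosome 15 (101373498 to 101374019, 520 bp) was listed in 4 of 7 high fat 600 and 5 of 7 low fat 600 libraries and in 6 of 7 high fat 200 and 6 of 7 low fat 200 libraries. The strongest peak per library had −log10 p 3.39 to 8.14 (median 5.49) in the 600 libraries and 3.93 to 9.78 (median 5.33) in the 200 libraries, which overlap over most of their range. In all, 17 of 22 peaks spanned the whole gap, although it is the widest of the 15. TAP1, a subunit of the peptide transporter that loads MHC class I, and PSMB9, a catalytic subunit of the immunoproteasome, face each other on chromosome 7 (25071989 to 25072133, 143 bp). That gap was listed in 3 high fat 600, 4 low fat 600, 5 high fat 200 and 6 low fat 200 libraries, with −log10 p 4.05 to 6.76 (median 5.61) in 600 libraries and 4.12 to 9.39 (median 5.27) in 200 libraries. Peaks here were thus found in every group, and the strongest was in low fat 200 replicate 7. USP53, of the ubiquitin-specific protease family, and SEC24D, a cargo adaptor of the COPII vesicle coat, are 11 bp apart on chromosome 8 (104560711 to 104560723). This pair was listed in 3, 5, 3 and 6 libraries of the groups in that order, and all 17 peaks spanned both ends.

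KCTD9, a BTB-domain protein, and CDCA2, which targets protein phosphatase 1 to chromatin at mitotic exit, lie 76 bp apart on chromosome 14 (9517686 to 9517763). Their gap was listed in 5 high fat 600, 5 low fat 600, 5 high fat 200 and 6 low fat 200 libraries, with −log10 p 3.27 to 7.93 (median 4.75) in 600 libraries and 3.88 to 10.03 (median 5.63) in 200 libraries. All 21 peaks spanned the gap, with centres at a median of 248.5 bp from its middle toward CDCA2. TPR, a protein of the nuclear pore basket, and C9H1orf27 are 54 bp apart on chromosome 9 (127540393 to 127540448) and were listed in 4, 5, 6 and 6 libraries of those groups, with −log10 p 3.39 to 9.09. ENY2, a subunit of the SAGA and TREX-2 complexes, and NUDCD1 (chromosome 4, 28203549 to 28203716, 166 bp) had the highest median −log10 p of the 15, 6.17, in 17 libraries. KCNMB3, a potassium channel subunit, and the zinc finger gene ZNF639 (chromosome 13, 117370306 to 117370496, 189 bp) were listed in 18 libraries. Only 12 of its 22 peaks spanned both ends, and the centres lay at a median of 236.5 bp from the middle toward ZNF639.

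NMRK1, the nicotinamide riboside kinase of NAD synthesis, and OSTF1 (chromosome 1, 228141890 to 228142159, 268 bp) were listed in 3 high fat 600, 6 low fat 600, 5 high fat 200 and 5 low fat 200 libraries, with −log10 p 3.57 to 10.03 (median 5.63). AASDHPPT, the phosphopantetheinyl transferase that activates fatty acid synthase and other carrier proteins, faces KBTBD3 across 31 bp on chromosome 9 (35903870 to 35903902). This pair was listed in 2, 5, 5 and 6 libraries of those groups. CEP290, a protein of the ciliary transition zone, faces TMTC3 across 130 bp on chromosome 5 (94384266 to 94384397), in 17 libraries. PDCD10, a cerebral cavernous malformation gene, and SERPINI1, the serine protease inhibitor neuroserpin, lie 366 bp apart on chromosome 13 (106558959 to 106559326), in 17 libraries, and 13 of 21 peaks spanned both ends. The remaining 4 of the 15 were PHTF2-TMEM60 (20 libraries), METTL25-CCDC59 (18), TXNDC16-GPR137C (18) and AZI2-ZCWPW2 (16). The gap of PHTF2-TMEM60 lies within another gene model that spans it.

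**Figure D4:**
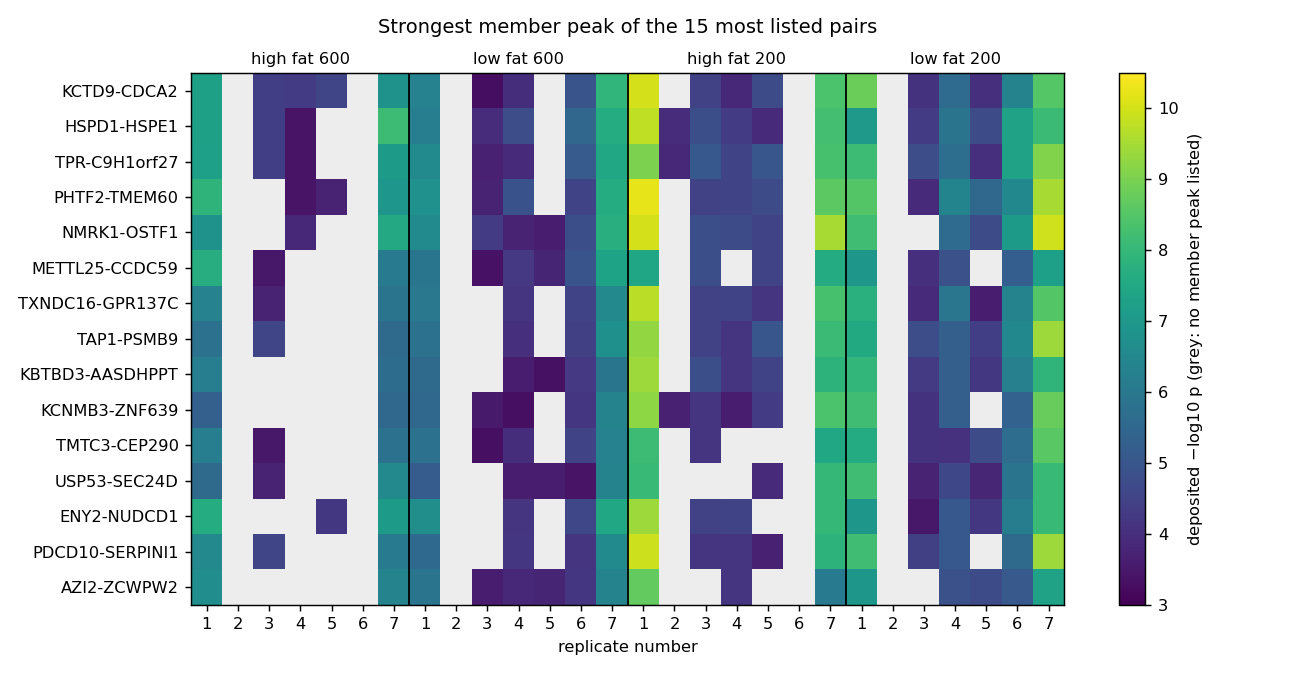
Deposited −log10 p of the strongest member peak (colour) of the 15 most listed named pairs (rows) in 28 libraries (columns, grouped by fat and label number). Grey marks a library without a listed peak at the pair; the same 12 libraries list all 15 pairs.

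The strongest single peaks outside those 15 belonged to ZNF654-CGGBP1 (−log10 p 10.4), TMEM167A-XRCC4 (9.57), TMEM218-PKNOX2 (9.45), ZNF277-DOCK4 (9.36) and CCDC146-FAM185A (9.16), each in high fat 200 replicate 1. XRCC4 is a scaffold of DNA end joining and DOCK4 a guanine nucleotide exchange factor. These pairs were listed in 14 to 16 libraries. They were picked by their strongest peak in any library, and a pair listed in more libraries has more peaks to take it from. Strength and recurrence are therefore not separate results here.

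Of 25 pairs drawn up as head-to-head in human or mouse, 19 had both genes in the annotation and 9 met the distance rule. Their orientation was not checked, so the list may hold pairs of another arrangement. Of these 9, 8 were listed, at a median of 4 libraries, against 45.8% and a median of 0 for all pairs. HSPD1-HSPE1, TAP1-PSMB9 and PDCD10-SERPINI1 led. MCM4-PRKDC, a replicative helicase subunit and the catalytic subunit of DNA-dependent protein kinase, followed with 10 libraries (gap 410 bp). ABCG8-ABCG5, whose proteins form the sterol exporter of hepatocytes, was listed in 4 (1 high fat 600, 1 low fat 600, 2 high fat 200 and 0 low fat 200). HADHB-HADHA, which encode the mitochondrial trifunctional protein of fatty acid oxidation, was listed only in 1 high fat 600 library, and GAPDHS-TMEM147 in none. PPAT-PAICS and COL4A1-COL4A2 overlap in these gene models and so are not members.

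Pairs were grouped by function mostly from the prefix of a gene symbol, so some members may lie outside the role named. Those with a gene of RNA polymerase, splicing or RNA processing were listed in 30 of 49 cases (61.2%). For DNA repair and replication it was 17 of 28 (60.7%), and for mitochondrial proteins 48 of 81 (59.3%). The proteasome and ubiquitin system had 25 of 45 (55.6%), and vesicles and Golgi 19 of 36 (52.8%). Lipid metabolism had 11 of 22 (50.0%), translation 31 of 70 (44.3%) and zinc finger genes 23 of 53 (43.4%). All pairs stood at 45.8%. These shares are descriptions, without a test. Among repair genes FANCB-MOSPD2, with a Fanconi anaemia gene, was listed in 14 libraries (2 high fat 600, 4 low fat 600, 4 high fat 200 and 4 low fat 200) and RPA3-UMAD1, with a subunit of replication protein A, in 12. Of mitochondrial genes MRPL50-ZNF189 was listed in 14 and MRPL18-TCP1 in 13, both with a protein of the large mitochondrial ribosomal subunit. Of translation genes SERP1-EIF2A, with an initiation factor, was listed in 14 and RPL37-CARD6, with a ribosomal protein, in 12.

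Of the 22 pairs of the lipid list, 3 were listed in 7 or more libraries, close to the 315 of 2061 of all pairs. By its symbol prefix the list also holds ACAD8, of valine breakdown. TDP2-ACOT13, with a mitochondrial acyl-CoA thioesterase, and THYN1-ACAD8, with the isobutyryl-CoA dehydrogenase of valine breakdown, were listed in 10 libraries each. Both were found in 2 high fat 600, 3 low fat 600, 2 high fat 200 and 3 low fat 200 libraries. ACAA1-OXSR1, with the peroxisomal thiolase ACAA1, was listed in 9 (2, 2, 2 and 3 libraries of those groups). GPAT3-ABRAXAS1, with a glycerol-3-phosphate acyltransferase, was listed in 5 libraries, of which 0 and 0 were high and low fat 600 and 2 and 3 high and low fat 200. SREBF1-RAI1, with the sterol regulatory factor SREBP-1, was listed in 1 low fat 200 library. No library listed ACLY-KLHL11, with the ATP citrate lyase, ACSS2-GSS, CHKB-CPT1B, ELOVL1-CDC20, KCTD6-ACOX2, LPIN3-EMILIN3 or the other 5 pairs of the list.

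The share of peaks at close pairs was lower on average in high fat than in low fat pigs in both sets, and neither difference passed the test. Both sets may come from the same pigs, which the labels do not say, so they may not be independent. With gene-end peaks as the denominator both differences were smaller, and among libraries with at least 1000 peaks they turned round. The share was 5.28% ± 4.15 in high fat 600 and 7.27% ± 3.64 in low fat 600 libraries (SD, n = 7 each), a difference of −2.0 points (exact permutation test over all divisions of the libraries, two-sided, p = 0.355, adjusted p = 0.355 over 3 tests). It was 3.98% ± 2.34 in high fat 200 and 6.09% ± 3.07 in low fat 200 libraries (SD, n = 7 each), a difference of −2.11 points (same exact permutation test, p = 0.175, adjusted p = 0.355). The fat differences in the 600 and 200 sets differed by 0.117 points (exact permutation p = 0.908). This test used the differences between 600 and 200 libraries of the same fat group and replicate number. When only libraries with at least 1000 peaks were kept, a choice made after the data were seen, the 5 high fat 200 libraries (2.83% to 6.27%) lay below the 4 low fat 200 libraries (6.52% to 10.3%) without overlap (exact permutation p = 0.00794, adjusted p = 0.0238). As a share of gene-end peaks over all libraries the differences were −0.298 points in the 600 set (exact permutation p = 0.946) and −1.10 points in the 200 set (exact permutation p = 0.727). In the 3 high fat and 3 low fat 600 libraries with at least 1000 peaks the difference was 0.517 points (exact permutation p = 0.60). The high fat and low fat 200 libraries of that size had 13.3% ± 1.80 (n = 5) and 12.9% ± 1.27 (n = 4), a difference of 0.434 points (exact permutation p = 0.730).

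**Figure D5:**
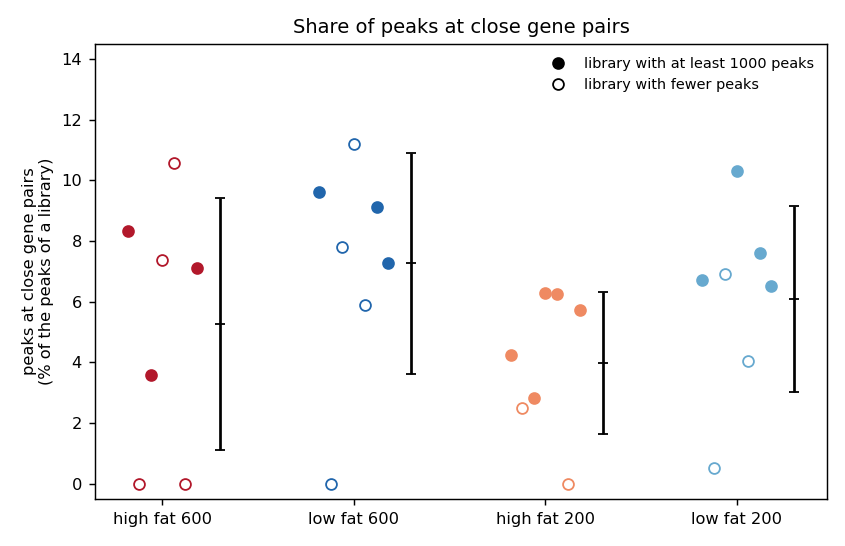
Peaks at close gene pairs as a percentage of the listed peaks of a library (y axis) in the 4 groups of 7 libraries; filled points have at least 1000 peaks, open points fewer, and the bar gives mean and SD. High fat 600 averages 5.28% against 7.27% in low fat 600, and high fat 200 averages 3.98% against 6.09% in low fat 200, with overlapping points.

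No region at a pair was called between fat groups. Fisher's exact test on the number of listing libraries, with Benjamini-Hochberg adjustment over all regions of at least 3 libraries, called 0 of 297 pair regions in the 600 set and 0 of 541 in the 200 set. The background was 0% in each, 0 of 3398 and 0 of 7342 regions. At an unadjusted exact p under 0.05 there were also 0 pair regions in either set, against 0 and 1 of all regions. With 7 libraries against 7 the smallest p possible is 0.000583, which after adjustment over all regions leaves little room for a call. Libraries without a peak at any pair can narrow that room further. Without passing, the smallest p in the 600 set was that of AZI2-ZCWPW2, where AZI2 is an adaptor of the TBK1 kinase. It was listed in 2 of 7 high fat 600 and 6 of 7 low fat 600 libraries (Fisher's exact p = 0.103, adjusted p = 1). Next on that side were NMRK1-OSTF1 and METTL25-CCDC59 (3 and 6 each), KBTBD3-AASDHPPT and KCNMB3-ZNF639 (2 and 5 each). In the other direction CAMTA2-SPAG7, ELP4-IMMP1L and MYO19-GGNBP2 were listed in 3 high fat 600 libraries and 1 low fat 600 library each, and RSF1-AAMDC and ALDH6A1-LIN52 in 4 and 3.

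In the 200 set TP53I3-SF3B6, with a p53-inducible oxidoreductase and a subunit of the SF3b splicing complex, was listed in 4 high fat 200 and 0 low fat 200 libraries (exact p = 0.0699, adjusted p = 1). ACAP3-PUSL1, LMNTD2-RASSF7 and CHEK2-HSCB were listed in 3 and 0. The tested region of HCFC1-TMEM187 had a peak in 3 and 0, of which 2 and 0 libraries had a peak that met the rule for the pair. Toward low fat, CABLES2-RBBP8NL was listed in 0 high fat 200 and 3 low fat 200 libraries, TMTC3-CEP290 and USP53-SEC24D in 3 and 6, and ABCE1-ANAPC10 and ETFRF1-CASC1 in 2 and 5. None of these passed. Some of the counts rest on the width of the window: at 500 bp in place of 1000 bp HCFC1-TMEM187 was listed in 1 of 28 libraries in place of 6, and CABLES2-RBBP8NL in 1 in place of 3. CAMTA2-SPAG7, named above for the 600 set, was then listed in 3 in place of 11.

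Between label numbers, pairs took 6.28% ± 3.89 of the peaks in 600 libraries and 5.03% ± 2.84 in 200 libraries (SD, n = 14 each), a difference of 1.24 points (permutation test, two-sided, p = 0.340, adjusted p = 0.355). As a share of gene-end peaks it was 0.128 points (permutation p = 0.951). Of 601 pair regions tested, Fisher's exact test with adjustment over 8592 regions called 0, against a background of 0.489% (42 regions). At an unadjusted p under 0.05, 21 pair regions (3.49%) were listed less often in the 600 libraries, near the 4.47% of all regions, and 0 more often. The share of a 600 library's pairs that recurred in the 200 library of the same fat group and replicate number varied. This share was not computed for other gene ends or all peaks, so it cannot be read as particular to close pairs. In the libraries with most pairs it was 96.2% of 371 pairs in high fat replicate 1, 88.9% of 458 in high fat replicate 7, 92.2% of 320 in low fat replicate 1 and 87.6% of 275 in low fat replicate 7. In the other direction these were 50.3%, 62.4%, 55.2% and 56.8% of the pairs of the 200 libraries. With fewer pairs it was also high in low fat pigs, at 87.6% of 121 in replicate 6, 94.9% of 59 in replicate 4, 72.7% of 11 in replicate 3 and 85.7% of 7 in replicate 5. In high fat pigs with fewer pairs it was 50.0% of 48 in replicate 3, 42.9% of 14 in replicate 4 and 40.0% of 15 in replicate 5.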

How the data were processed

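Per the submitters' processing notes, FastQC, BWA, SAMtools, Picard and Genrich were used with Sscrofa11.1; versions, roles and the rule by which the list was filtered are not given in the sources used here. Per the file headers, the deposited list gives for each peak its position, a score, a signal (the authors' area of the peak), −log10 p and the library. The deposited score equalled 1000 times signal over width, capped at 1000, in all but 1 peak with the end minus the start as width, so starts were read as 0-based and printed 1-based. Depth is unknown, so no counting interval is given.

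Gene positions were taken from RefSeq for that build. The table gives no strand and no sequence, so the planned tests of head-to-head and tail-to-tail pairs and the promoter motifs were not run. Facing ends had to be nearest neighbours with no other protein-coding end between them; 36 pairs that another gene spans were kept. Library measures were compared by exact permutation or sign-flip tests over libraries (100000 resamples for 14 against 14) and regions by Fisher's exact test, all two-sided and adjusted by Benjamini-Hochberg within each family, at 0.05. Scripts were tested on simulated lists. The labels name no animals, so p-values measure the spread between libraries.

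Named pairs have a symbol for both genes. They are the 15 listed in most libraries, the 5 others with the strongest peak, the 5 smallest Fisher p per fat direction and label, and the pairs of the list from human and mouse; the part of the rule that needed strand was not used, and some pairs are not reported here. Members and lists were chosen with earlier results of these data known. Of the alternatives, far ends, 1 window per pair, libraries with at least 1000 peaks, spanned pairs left out and the share of gene-end peaks were added after the data were seen. Python 3.11.15 was used with scipy 1.17.1 for tests, matplotlib 3.10.9 for plots, and pandas 2.3.3 and numpy 2.4.6 for tables.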

Additional observations from a re-analysis of the deposited data

How the results depend on the processing

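The excess of facing over other and over far ends kept its direction and its call under every alternative but 1, and with each library left out (2.66 to 3.59 and 3.32 to 4.44 points in the 600 set, 5.22 to 6.53 and 6.13 to 7.63 in the 200 set). The exception was the top decile of strength, with 0.519 points (adjusted p = 0.0938) over other and 0.657 (0.0833) over far ends in the 600 set and 1.11 and 1.48 (0.0625 each) in the 200 set, all exact permutation tests; there 236 pairs were listed and 792 peaks remained, and above the median strength 3104 peaks. Fat differences in the share of peaks stayed without a call except in libraries with at least 1000 peaks (−2.72 points in the 200 set); leaving out libraries gave −3.21 to −1.12 in the 600 set and −3.04 to −1.41 in the 200 set. The number of called pair regions stayed 0 in all alternatives run. Between fat groups and with the replicate number as a block these tests had little room for a call. A count of 0 there does not show that the result is robust. None of the alternatives equalised the number of gene ends per window at facing and other ends.

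No strength or width difference passed anywhere, and directions turned. For −log10 p in the 600 set the difference was 0.0196 with gaps up to 500 bp, 0.0691 above the median strength, 0.0084 on autosomes, 0.0041 without spanned pairs, 0.0145 with at least 30 peaks of each kind and 0.0170 in libraries with at least 1000 peaks, with −0.0315 to 0.0262 when a library was left out. In the 200 set it was −0.0065 above the median strength. Width differences turned to 0.25 bp (window of 500 bp), 20.4 bp (at least 30 peaks) and 25.9 bp (libraries with at least 1000 peaks) in the 600 set, with −19.8 to 2.61 bp when a library was left out, and to −6.5 bp (gaps up to 2000 bp) and −11.1 bp (top decile) in the 200 set. The cause was not tested.

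With the replicate number as a block, the fat differences were −2.0 points in the 600 set and −2.11 in the 200 set (exact permutation, adjusted p = 0.340 each). Between fat groups the number is a count within each group and joins different pigs, so that block has no basis in the design. The label difference was 1.24 points with the block (exact permutation p = 0.0198, adjusted p = 0.0593). No pair region was called, and the 42 regions called between labels fell to 0. Over pairs, deviations of same-numbered libraries from their group means correlated at 0.0151 to 0.790 between labels and at −0.294 to 0.80 between fat groups, and 6 of 14 libraries of the 600 set correlated best with their own number. Between labels all but low fat replicate 4 (0.0151) exceeded 0.1, and the titles run through the fat groups in the same order in both sets. The labels do not say that a number marks an animal, and not every correlation passed 0.1, so the numbers were not taken as pairing in the main tests. The comparison of the fat differences between the 600 and 200 sets did subtract same-numbered libraries. Unknown depth limits all statements to what was listed.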

Other observations

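Chromosomes differed in how often their close pairs were listed. Some library listed 71.0% of 31 pairs on chromosome 10, 70.6% of 34 on chromosome 8 and 66.7% of 21 on chromosome 16, against 28% of 182 on chromosome 12 and 33.3% of 51 on chromosome 17. Chromosome 12 also had the highest share of gene ends in close pairs, 16.2%, and chromosome 8 the lowest, 4.96%. Other gene ends were listed in 30.9% of cases on chromosome 10, 24.5% on chromosome 8 and 15.8% on chromosome 12. On each of the 19 chromosomes facing ends were listed more often than other ends.

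Of 409 genes with a close neighbour on each side, 36 had a peak at both gaps in some library, 230 at 1 of them and 143 at neither. Of the 554 pairs listed in some 600 library, 25 were listed in no 200 library, and 24 of these in a single 600 library. Of the 919 pairs listed in some 200 library, 390 were listed in no 600 library. Such counts were not made for other gene ends or all regions, so they show no trait of close pairs. DALRD3-NDUFAF3, with an assembly factor of respiratory complex I, was listed in 2 of the 600 set.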
